A study of Mus musculus with 16 samples.

Results

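The genes for the CREB and SRF transcription machinery were followed in the brains of aged mice treated with adropin. The 10 genes were taken by name from the deposited count table: the CREB family factors Creb1, Crem and Atf1, the coactivators Crtc1, Crtc2 and Crtc3, the acetyltransferases Crebbp and Ep300, and the serum response factor Srf with its partner Elk1. They are 10 of 40481 genes listed, and all 10 were among the 14950 genes that passed the filter on low counts (more than 1 CPM, a count scaled to the library total, in at least 7 mice) and were tested. The mice were males bought at 18 months of age, of strain C57BL in the labels and C57BL/6J in the study's methods. The adropin group (8 mice) received the peptide Adropin(34-76), the putative secreted part of the protein, by daily intraperitoneal injection at 90 nmol/kg/d in saline with bovine serum albumin. The saline group (8 mice) received the diluent alone. Injections ran for 2 weeks before behavioural tests and continued during them. Mice were fasted for 6 h before brain tissue was frozen, and poly-A RNA was sequenced. Each mouse is called by its label number, such as 5_5, and what these numbers stand for is not given in the sources used here.

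CREB1, CREM and ATF1 are related leucine zipper proteins that bind the cyclic AMP response element (CRE) in promoters. Kinases of the cyclic AMP, calcium and MAP kinase pathways phosphorylate CREB, which then recruits the acetyltransferases CBP (Crebbp) and p300 (Ep300), while CRTC proteins move to the nucleus when dephosphorylated and act as further coactivators. SRF binds CArG boxes and works with ternary complex factors such as ELK1, which MAP kinases activate, or with actin-regulated MRTF proteins. Together they switch on immediate early genes such as Fos within minutes of neuronal activity, largely through changes to proteins that are already present. RNA-seq measures the transcripts of the machinery and not its phosphorylation or location.

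The library totals ranged from 35185051 to 70314050 counts in the adropin group (median 41190462) and from 35026503 to 47245785 in the saline group (median 41497897.5). The deepest libraries were those of adropin mice 1_3 and 5_5. Markers of neurons, astrocytes, oligodendrocytes, microglia, endothelium, smooth muscle, choroid plexus and blood had counts in every mouse. The summed level of no marker list differed between the groups (two-sided exact permutation tests, lowest p = 0.0701, for microglia). All 5 choroid plexus markers tested were lower in the adropin group at an unadjusted p below 0.05, against 2.13% of all genes tested. By the same rule 1 of 5 microglia markers was higher, against 1.87%, and no marker of the other lists passed. The oligodendrocyte sum varied widely between mice, from 2355 CPM in saline mouse 6_1 to 6716 CPM in saline mouse 8_3. The sum of all 6 choroid plexus markers listed, with Folr1, which was not tested, was 2465 CPM in saline mouse 8_3 at the highest. Its saline median was 21.0 CPM and its adropin range 11.3 to 73.6 CPM. Because whole tissue was sequenced, a smaller share of expressing cells and less RNA per cell cannot be told apart.

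The sites these factors recognise also occur before some of the factors' own genes. Promoters, as 250 bases before to 50 bases after the RefSeq start (GRCm38.p6), were given for 8 of the 10 genes, all but Crem and Crtc2. The letters searched on both strands were the full CRE, TGACGTCA, its short form, TGACG, which the full site contains, and the CArG box. Of 27025 genes with a promoter, 2.03% held the full CRE, 23.05% the short CRE and 1.81% a CArG box. None of the 8 promoters held a full CRE, 2 held a short CRE (Atf1 and Srf) and 1 held CArG boxes (Srf). Stretches are shown for the CArG boxes of Srf, the only ones among these genes, and for the short CRE of Atf1. The short CRE of Srf lies outside the stretch shown. Capitals mark the CArG boxes of Srf, which begin 82 and 62 bases before the start, and the short CRE of Atf1, which begins 90 bases before it. The Srf stretch is chr17:46556180-46556279 on the minus strand and the Atf1 stretch chr15:100227721-100227820 on the plus strand.
Srf: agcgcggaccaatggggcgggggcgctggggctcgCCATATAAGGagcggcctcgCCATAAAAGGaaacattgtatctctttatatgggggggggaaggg
Atf1: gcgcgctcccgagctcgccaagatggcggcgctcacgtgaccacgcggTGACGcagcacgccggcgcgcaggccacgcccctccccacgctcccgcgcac

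Across the 10 genes, transcripts differed little between adropin- and saline-treated mice. Crebbp was the only 1 of 10 with an unadjusted p below 0.05 for a higher level, against 1.87% of all genes tested, and 0 of 10 had a lower level by the same rule, against 2.13%. Adjusted p-values ranged from 0.873 to 0.998 (edgeR's quasi-likelihood test, Benjamini-Hochberg adjustment over 14950 genes), and 0 genes of the whole table passed an adjusted p of 0.05 (0 to 5 over the alternatives, with 5 by DESeq2) while 599 passed the unadjusted one. The log2 fold changes, adropin minus saline, were above 0 for 6 genes and below 0 for 4, with a median of 0.06 beside -0.0019 over all genes tested. The 95% confidence intervals of the 10 fold changes lay between 0.823-fold and 1.34-fold. The groups overlapped in all 10 genes, and over the whole table they were free of overlap in 1 gene, or 0.00669% of those tested. The within-group coefficient of variation was below the all-gene median of 13.5% in 9 of the 10. That median takes in genes down to about 1 CPM, while the 10 averaged 8.81 to 274 CPM. Genes of like level were not compared.

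**Figure D1:**
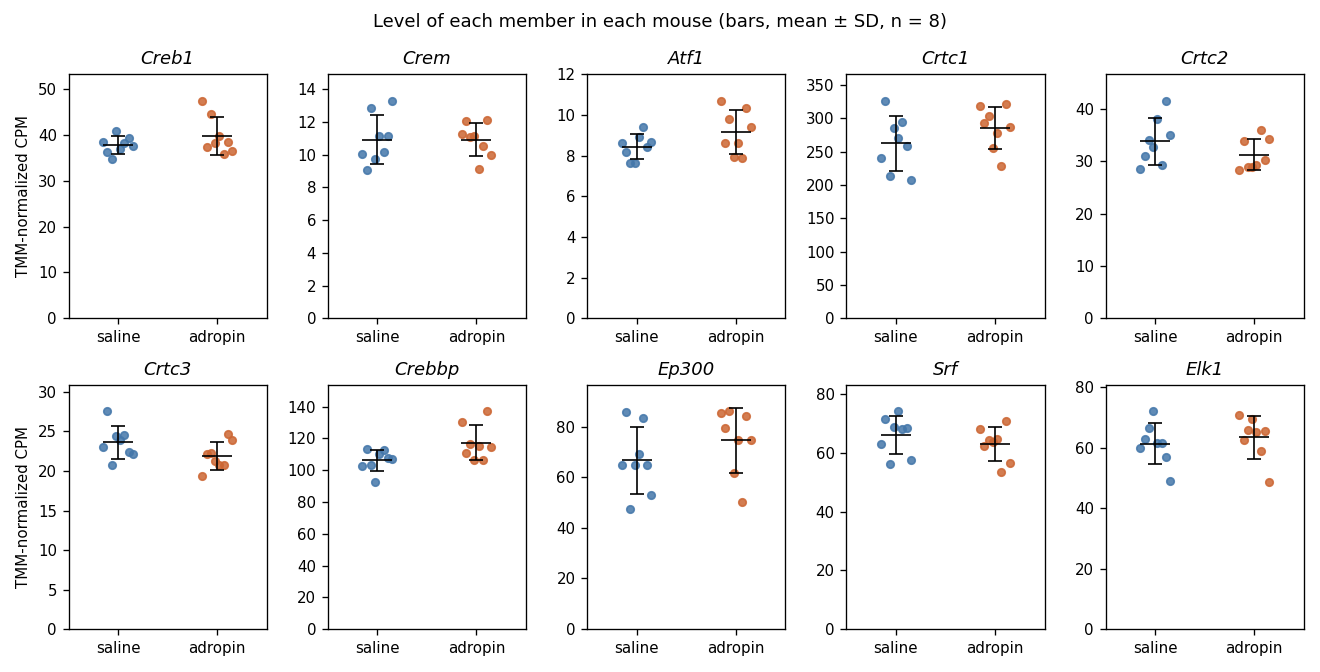
TMM-normalized CPM of each of the 10 genes (vertical axes, from 0) in each saline (blue) and adropin (orange) mouse, with bars for the mean ± SD of 8 mice. The groups overlap in every panel, and the 2 highest Crebbp values are those of adropin mice 5_5 and 1_3.

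Creb1, the founding activator of the family (chromosome 1, 64532645 to 64604548, plus strand, GRCm38), ranged from 35.9 to 47.5 CPM in the adropin group with a median of 38.3, and from 34.7 to 40.9 CPM in the saline group with a median of 37.8. The adropin mice reached higher, but the medians were close and the groups overlapped. The log2 fold change was 0.07 (SE 0.061, 95% interval -0.053 to 0.20, edgeR p = 0.234, exact permutation p = 0.258), and it was 0.040 without adropin mouse 1_3. Crem, whose gene yields both activators and the cyclic AMP-inducible repressor ICER, had a mean of 10.9 CPM in both groups. Its adropin values, 9.12 to 12.1 CPM, lay inside the saline range of 9.07 to 13.3 CPM, and its log2 fold change was -0.00072 (SE 0.086, exact permutation p = 0.968). Isoforms were not counted apart, and 472 exon bases of Crem overlap Gm6225 on the other strand. Atf1, the third activator, ranged from 7.89 to 10.7 CPM (median 9.04) with adropin and from 7.64 to 9.43 CPM (median 8.54) with saline. In Atf1, 6 of 8 adropin mice were above the saline median, and the log2 fold change of 0.12 (SE 0.077, edgeR p = 0.142, exact permutation p = 0.133) did not pass the test.

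The 3 CRTC coactivators, which calcium and cyclic AMP signals release from the cytoplasm, went in different directions and none passed the test. Crtc1, the form known for its role in neurons, ranged from 228 to 322 CPM (median 290.0) with adropin and from 207 to 327 CPM (median 264) with saline. The saline range spanned the adropin range, and the log2 fold change was 0.12 (SE 0.093, edgeR p = 0.205, exact permutation p = 0.213), or 0.024 with 1 surrogate variable in the fit. Crtc2, known for its role in liver glucose production, ranged from 28.2 to 35.9 CPM (median 29.8) with adropin and from 28.4 to 41.6 CPM (median 33.4) with saline. Its log2 fold change was -0.11 (SE 0.080, edgeR p = 0.170, exact permutation p = 0.204). Crtc3 ranged from 19.3 to 24.7 CPM (median 21.7) with adropin and from 20.8 to 27.5 CPM (median 23.5) with saline, with a log2 fold change of -0.11 (SE 0.064, edgeR p = 0.105, exact permutation p = 0.0897). The highest Crtc2 and Crtc3 values were in saline mice, and the groups overlapped in both genes. Crtc3 passed the unadjusted threshold of 0.05, at a log2 fold change of -0.13, when saline mouse 5_4 was left out, and at -0.15 with 1 surrogate variable in the fit. It was -0.065 without saline mouse 5_3 and -0.018 when mice were blocked by first label number, and passed in neither.

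Crebbp encodes CBP, the acetyltransferase that phosphorylated CREB recruits (chromosome 16, 4081328 to 4213997, minus strand). It ranged from 106 to 137 CPM (median 115) in the adropin group and from 92.3 to 114 CPM (median 107) in the saline group. Crebbp was above the saline median in 6 of 8 adropin mice, and the remaining adropin mice lay inside the saline range. The log2 fold change was 0.14 (SE 0.061, 95% interval 0.016 to 0.27, edgeR p = 0.0297, adjusted p = 0.873, exact permutation p = 0.0222), a 1.10-fold difference. The adropin mice with the highest Crebbp, 5_5 at 137 CPM and 1_3 at 130 CPM, were also those with the 2 deepest libraries. Without both, the log2 fold change of Crebbp was 0.081 and did not pass. Nor did it pass without 1_3 alone (0.13), without 5_5 alone (0.12) or without the lowest saline mouse, 6_1 (0.11). It also did not pass with 1 surrogate variable in the fit (0.11), or when mice were blocked by first (0.18) or second label number (0.11). The part of depth in this difference was not tested. Ep300, which encodes the related p300, ranged from 50.02 to 86.0 CPM (median 77.1) with adropin and from 47.5 to 85.8 CPM (median 64.9) with saline. These ranges almost coincided, and the log2 fold change of 0.16 (SE 0.13, edgeR p = 0.215, exact permutation p = 0.252) had the widest interval of the 10, -0.10 to 0.42. With 1 surrogate variable in the fit the log2 fold change of Ep300 was 0.0074.

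Srf, the CArG box factor (chromosome 17, 46548329 to 46556175, minus strand), ranged from 53.4 to 70.7 CPM (median 64.0) with adropin and from 56.3 to 74.1 CPM (median 68.3) with saline. The groups overlapped over most of their range, although only 1 of 8 adropin mice was above the saline median, and the log2 fold change of Srf was -0.067 (SE 0.068, 95% interval -0.21 to 0.076, edgeR p = 0.337, exact permutation p = 0.347). With 1 surrogate variable in the fit it was -0.13 and passed the unadjusted threshold of 0.05, while it was -0.029 without adropin mouse 4_3 and -0.016 when mice were blocked by first label number, and passed in neither. Elk1, the ternary complex factor that binds with SRF, ranged from 48.7 to 71.0 CPM (median 65.4) with adropin and from 48.9 to 72.1 CPM (median 61.6) with saline. Its log2 fold change was 0.049 (SE 0.079, edgeR p = 0.543, exact permutation p = 0.572), and it was 0.0081 without saline mouse 8_3 and 0.096 without adropin mouse 7_4. Elk1 (chromosome X, 20933395 to 20950608, minus strand) shares 76 exon bases with its neighbour Uxt on the same strand.

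Levels of different genes were compared per kilobase of exon, as TMM-normalized CPM divided by the length of the merged GENCODE exons. On this scale Crtc1 and Srf were the most abundant of the 10, at 24.5 ± 3.34 and 22.3 ± 2.09 CPM per kb (SD, n = 16), and Crtc1 was above Srf in 11 of 16 mice, so that the pair was not separated beyond the spread. Elk1 followed at 11.6 ± 1.26 CPM per kb and lay below Srf in all 16 mice. Crebbp (8.25 ± 0.778) and Crtc2 (7.93 ± 0.948 CPM per kb) were also close, with Crebbp higher in 9 of 16 mice. Ep300 stood at 4.95 ± 0.924 CPM per kb, below Crtc2 and above Atf1 in all 16 mice. Atf1 (2.88 ± 0.300) and Creb1 (2.82 ± 0.238 CPM per kb) were not separated either, with Atf1 higher in 9 of 16 mice. Crtc3 (2.31 ± 0.207) and Crem (1.85 ± 0.210 CPM per kb) were lowest, Crtc3 being the higher in 14 of 16 mice. Creb1, Crem and Atf1, the DNA-binding CREB family factors, were among the 4 least abundant transcripts of the 10 per length. The merged exons include every annotated isoform and come to 13742 bases for Creb1 against 2893 bases for Srf.

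The machinery did not vary as 1 block between mice. With group means subtracted, 45 pairs of genes were correlated over the 16 mice on log2 CPM. The permutation tests (100000 permutations) did not allow for this subtraction, so their p-values are somewhat too small. By both Pearson's r and Spearman's rho, 6 pairs had an adjusted p below 0.05 (Benjamini-Hochberg adjustment over the 45). The closest was Crtc1 with Ep300, with r = 0.939 (permutation p = 1e-05, the smallest these permutations give, adjusted p = 0.00045), rho = 0.879 (permutation p = 2e-05, adjusted p = 0.0009), r = 0.976 within the adropin group and r = 0.924 within the saline group. Without the 2 mice farthest from the median of Crtc1 it was r = 0.920. Both genes were low in adropin mouse 4_3 and saline mice 5_4 and 8_3. The share of counts from the gene Gm42418 also differed between mice, from 0.84% in 4_3 to 4.98% in adropin mouse 7_4. It was 3.26% in saline mouse 5_3 and 3.96% in adropin mouse 5_5. There Crtc1 (327 and 322 CPM) and Ep300 (85.8 and 84.03 CPM) were high. In 7_4 they stood at 287 and 74.6 CPM, and in 8_3, the lowest in Crtc1, the share was 1.55%. Whether this share bears on the correlation was not tested. Atf1 with Crebbp had r = 0.828 (permutation p = 8e-05, adjusted p = 0.0018) and rho = 0.788 (permutation p = 0.00046, adjusted p = 0.0069), with r = 0.905 within the adropin group, 0.668 within the saline group and 0.775 without 2 mice.

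Srf went with Crtc1, at r = 0.828 (permutation p = 0.00016, adjusted p = 0.0024) and rho = 0.794 (permutation p = 0.0004, adjusted p = 0.0069), and with Ep300 at r = 0.785 (permutation p = 0.00049, adjusted p = 0.00551) and rho = 0.668 (permutation p = 0.00589, adjusted p = 0.0379). Without 2 mice these were r = 0.718 and r = 0.587. Set against 11609 genes with a mean of at least 5 CPM, 0.5% had a larger r with Crtc1 than Ep300 had, and 0.508% a larger r with Atf1 than Crebbp had. The pairs with Srf stood out less, since 8.73% of genes had a larger r with Crtc1 and 16.1% a larger r with Ep300 than Srf had. Atf1 with Ep300 (r = 0.666, adjusted p = 0.0439) and Crtc1 with Crtc3 (r = 0.656, adjusted p = 0.0439) completed the 6 pairs by the same permutation test. Both lay close to the threshold, and whether they would pass with the subtracted group means allowed for was not tested. Atf1 with Ep300 had r = 0.831 within the adropin group, 0.475 within the saline group and 0.506 without 2 mice, and 7.82% of genes had a larger r with Atf1 than Ep300 had. Crtc1 with Crtc3 had r = 0.306 within the adropin group, 0.911 within the saline group and 0.653 without 2 mice, and 22.2% of genes had a larger r with Crtc1 than Crtc3 had. Creb1, Crem, Crtc2 and Elk1 were in none of the 6 pairs, and 18 of the 45 correlations were negative, down to r = -0.474 for Crtc2 with Elk1. For Crem the groups differed in sign: within the saline group its r was -0.894 with Crtc1, -0.850 with Crtc3 and -0.841 with Ep300, and within the adropin group 0.390, 0.241 and 0.286. These pairs of Crem were singled out after their values were seen, each r rests on 8 mice, and the difference between groups was not tested.

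**Figure D2:**
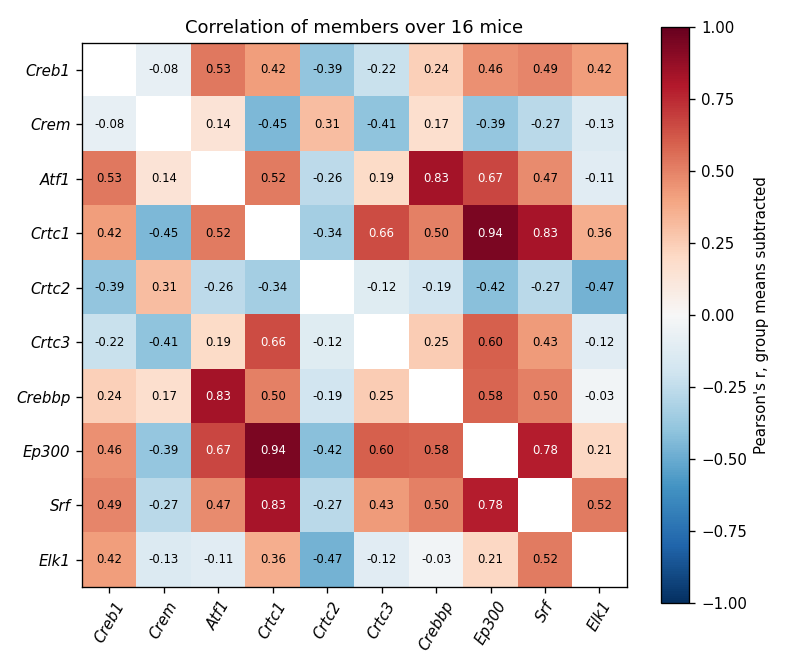
Pearson's r of log2 TMM-normalized CPM between each pair of the 10 genes over 16 mice, with group means subtracted (colour scale from -1, blue, to 1, red). The highest value is that of Crtc1 with Ep300 (0.94) and the lowest that of Crtc2 with Elk1 (-0.47).

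The genes whose levels went most closely with Creb1 over the 16 mice, with group means subtracted, were Kitl (r = 0.921), Rhot1 (r = 0.898) and Chm (r = 0.885). For Crem they were Idnk (r = 0.829), Polr2h (r = 0.791) and 2010315B03Rik (r = 0.789), and for Srf they were Kif26a (r = 0.917), 2700081O15Rik (r = 0.904) and Nhlrc2 (r = 0.904). These are the highest of 11609 values for each gene, given as a description with no test.

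The enzymes and partners around the machinery were counted by the same rule, against 1.87% higher and 2.13% lower over all genes tested. Of 32 genes for the kinases, phosphatases and cyclases that act on CREB or CRTC, 1 was higher and 0 were lower at an unadjusted p below 0.05, with a median log2 fold change of 0.056. The 1 was Camk4, the calcium-dependent nuclear kinase of CREB, at 245 ± 31.2 CPM with adropin and 210.0 ± 27.4 CPM with saline (SD, n = 8 each), above the saline median in 7 of 8 adropin mice, with a log2 fold change of 0.22 (SE 0.089, edgeR p = 0.0239, adjusted p = 0.873, exact permutation p = 0.0381). Of 15 other CREB and ATF leucine zipper genes, 13 were tested (Atf3 and Creb3l4 were not) and 0 passed in either direction. The smallest p-values there were those of Atf6, a stress-activated factor of the endoplasmic reticulum (log2 fold change 0.18, exact permutation p = 0.224), and Crebzf (log2 fold change -0.11, exact permutation p = 0.176). Of 9 genes for SRF partners, 8 were tested (Myocd was not) and 0 passed, with log2 fold changes of 0.18 for Mrtfb and 0.094 for Mrtfa, the actin-regulated coactivators. Of 12 partners of CBP and p300, 0 passed, and the smallest p-values were those of the steroid receptor coactivators Ncoa1 (log2 fold change 0.12, exact permutation p = 0.0841) and Ncoa2 (log2 fold change 0.26, exact permutation p = 0.147).

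Many of the genes that the machinery is known to switch on were lower. Of 25 CREB target genes 11 were lower in adropin-treated mice and 0 higher at an unadjusted p below 0.05, with a median log2 fold change of -0.15. Of 10 rapid-response SRF targets 8 were lower and 0 higher, with a median of -0.61. Fos is in both lists, and over the 34 genes of their union 18 were lower. The lists were drawn up with the fall of these genes in these samples known, so the counts are not independent evidence of its direction. Without saline mouse 8_3, the one with high choroid plexus markers, 9 of the 25 and 7 of the 10 were lower. When mice were blocked by their first label number, and 3 such numbers occur in both groups, 1 of the 25 and 2 of the 10 were lower. Of 13 SRF targets of the actin cytoskeleton 0 were lower and 0 higher, with 8 fold changes below 0 and a median of -0.071, and the difference between the lists was not tested. Of these Acta2, the smooth muscle actin, had the smallest p (log2 fold change -0.37, edgeR p = 0.0729, exact permutation p = 0.126), followed by the myosin light chain Myl9 (log2 fold change -0.24, edgeR p = 0.136, exact permutation p = 0.196).

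Fos, the AP-1 subunit whose promoter holds both a CRE and an SRF site, ranged from 13.4 to 56.8 CPM (median 24.2) with adropin and from 20.4 to 72.1 CPM (median 63.1) with saline. All 8 adropin mice were below the saline median, but saline mouse 5_4 was low and adropin mouse 5_5 high, so that the groups overlapped. The log2 fold change of Fos was -0.997 (SE 0.28, edgeR p = 0.00221, adjusted p = 0.873, exact permutation p = 0.00886). Nr4a1, an orphan nuclear receptor, ranged from 82.7 to 158 CPM (median 102) with adropin and from 83.9 to 277 CPM (median 186) with saline, with a log2 fold change of -0.65 (SE 0.20, edgeR p = 0.00456, exact permutation p = 0.0208). Junb, another AP-1 subunit, ranged from 79.1 to 185 CPM (median 101) with adropin and from 120 to 216 CPM (median 172) with saline, with a log2 fold change of -0.64 (SE 0.16, edgeR p = 0.00103, exact permutation p = 0.00373). In Nr4a1 all 8 and in Junb 7 of 8 adropin mice were below the saline median, and both genes overlapped between groups. Junb shares 173 exon bases with Prdx2 on the other strand, and whether counting used strand is not given in the sources used here.

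Arc, a synaptic protein made on activity, ranged from 111 to 426 CPM (median 178) with adropin and from 174 to 573 CPM (median 437) with saline, and had a log2 fold change of -0.74 (SE 0.29, edgeR p = 0.0216, exact permutation p = 0.0348). Egr1, a zinc finger factor, ranged from 195 to 479 CPM (median 402) with adropin and from 287 to 619 CPM (median 517) with saline. All 8 adropin mice were below the saline median of Egr1, but its log2 fold change of -0.40 (edgeR p = 0.0592, exact permutation p = 0.0974) did not pass. The smallest p-values of the target lists were those of Egr4 (log2 fold change -0.55, edgeR p = 2.59e-05, adjusted p = 0.387, exact permutation p = 0.000622) and Gadd45b, a stress-inducible growth arrest gene (log2 fold change -0.53, edgeR p = 8.36e-05, exact permutation p = 0.000311). On the log2 scale Egr2 (-1.19), Ccn1 (-0.92), Sik1 (-0.59), Fosb (-0.53), Nr4a3 (-0.46) and Mcl1 (-0.18) also fell. Egr3 was the rapid-response SRF target with a fold change above 0 (log2 0.091, edgeR adjusted p = 0.946). Sik1, itself a kinase that holds CRTC proteins in the cytoplasm, fell while Crtc1, Crtc2 and Crtc3 did not pass.

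**Figure D3:**
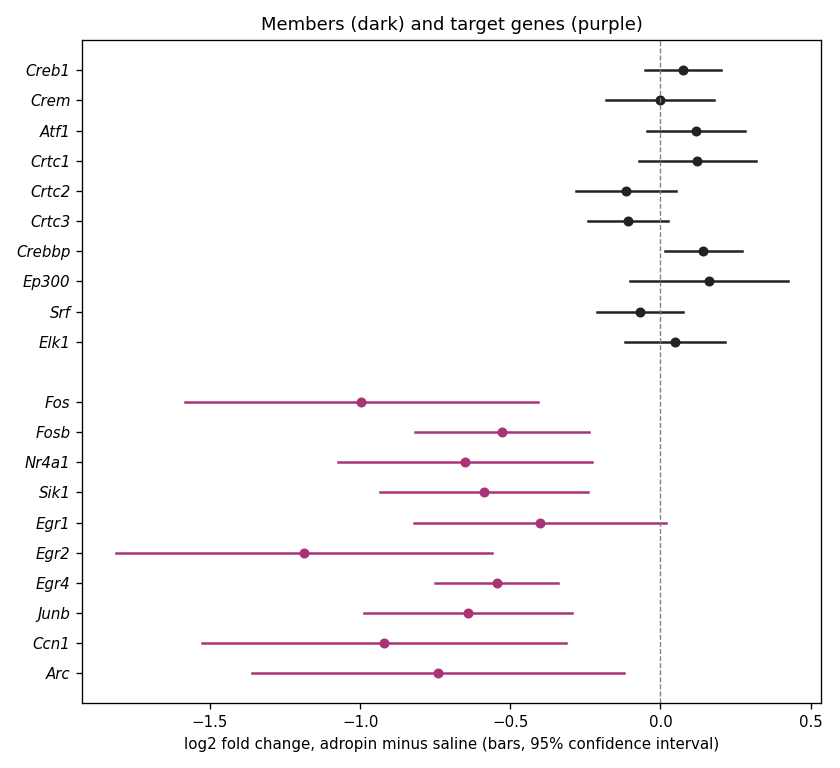
Log2 fold changes, adropin minus saline (horizontal axis), with 95% confidence intervals for the 10 genes of the machinery (dark) and 10 of their targets (purple). The fold changes of the machinery lie between -0.11 and 0.16. The Crebbp interval (0.016 to 0.27) is wholly above 0, and those of the other machinery genes span 0. Of the 10 targets shown, 9 have an interval wholly below 0, and that of Egr1 reaches 0. These targets were picked for a small p or with their fall known, and over the 34 targets of both lists 18 were lower.

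The list of CREB targets is made of genes known to respond to CREB, and most of their promoters held CRE letters. Of 19 CREB targets with a promoter entry, 16 held a short CRE (84.2%, against 23.05% of all genes) and 6 the full CRE. Of the 16, 8 were among the lowered genes, and of the 6 with a full CRE 2 were, Btg2 and Dusp1, while the others included Sst, the neuropeptide somatostatin (log2 fold change -0.093, adjusted p = 0.893). Over all genes tested, 3841 held a short CRE, of which 2.29% were lower and 1.56% higher, and 396 held a full CRE, of which 3.03% were lower and 1.77% higher. The 6 rapid-response SRF targets with an entry (Fos, Egr2, Egr4, Junb, Ccn1 and Mcl1) all held a short CRE and were all lower, but of these only Egr2 held a CArG box within the window. Of the 11 cytoskeletal SRF targets with an entry, 5 held a CArG box and 0 of the 5 were lower. Over all genes tested, 175 held a CArG box, of which 4% were lower and 1.71% higher, so that 0 of 5 says little.

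Stretches of 4 target promoters are shown, those of Fos for its paired short CREs, Dusp1 and Btg2 for the full CRE, and Egr2 for its CArG box between short CREs. Capitals mark every CRE, short CRE and CArG box in the stretch. Short CREs of Fos begin 129 and 66 bases before the start, the CRE of Dusp1 begins 143 bases and that of Btg2 166 bases before it, and the CArG box of Egr2 begins 72 bases before it. The stretches are chr12:85473745-85473844 (Fos, plus strand), chr17:26508562-26508661 (Dusp1, minus strand), chr1:134079268-134079367 (Btg2, minus strand) and chr10:67537752-67537851 (Egr2, plus strand) on GRCm38.p6, from RefSeq.
Fos: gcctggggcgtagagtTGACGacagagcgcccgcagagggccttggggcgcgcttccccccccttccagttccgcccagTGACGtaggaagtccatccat
Dusp1: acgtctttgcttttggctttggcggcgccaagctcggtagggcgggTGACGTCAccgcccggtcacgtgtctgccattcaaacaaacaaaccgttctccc
Btg2: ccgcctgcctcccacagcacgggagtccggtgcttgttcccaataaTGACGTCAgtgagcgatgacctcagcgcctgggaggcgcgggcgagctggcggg
Egr2: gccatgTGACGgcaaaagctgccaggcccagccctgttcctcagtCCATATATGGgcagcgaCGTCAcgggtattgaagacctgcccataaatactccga

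The 5 named targets were also set against Creb1 and Srf within each mouse, as log2 ratios, and these are given as a description with no test. The mean log2 ratio of Fos to Creb1 was -0.62 ± 0.69 with adropin and 0.50 ± 0.60 with saline (SD, n = 8 each), a difference of -1.12. The ratio of Fos to Srf differed by -0.98, close to the log2 fold change of Fos itself. Over the 10 ratios the differences ran from -1.12 to -0.35, the last for Egr1 to Srf. Creb1 and Srf differed little between groups and the targets were chosen with their fall known, so the ratios mainly restate the fold changes of the targets.

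How the machinery varied with Fos between mice of the same group was read from a slope. In a fit with treatment group and the log2 level of Fos, 9 of 14949 genes, or 0.0602%, had a slope on Fos at an adjusted p below 0.05 (edgeR, Benjamini-Hochberg adjustment), and 0 of the 10 machinery genes did. The 9 were Ccn1 (slope 0.98 log2 units per log2 unit of Fos), Arc (0.97), Egr2 (0.92), Btg2 (0.79), Ier2 (0.67), Nr4a1 (0.63), Dusp1 (0.59), Junb (0.49) and Lynx1 (0.39), of which all but Lynx1 are in the target lists. Srf had a slope of 0.087 (95% interval -0.025 to 0.20), Creb1 of 0.030 (-0.076 to 0.14) and Crem of -0.0028 (-0.15 to 0.14). Unadjusted p-values below 0.05 were reached by 3 of the 10, Ep300 (slope 0.23), Atf1 (0.16) and Crebbp (0.12), with edgeR adjusted p from 0.143 to 0.197, and by 20.5% of all genes. Under every alternative run, 0 of the 10 genes had a slope at an adjusted p below 0.05, although the count over all genes rose to 80 without adropin mouse 5_5 and to 421 without adropin mouse 2_4.

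**Figure D4:**
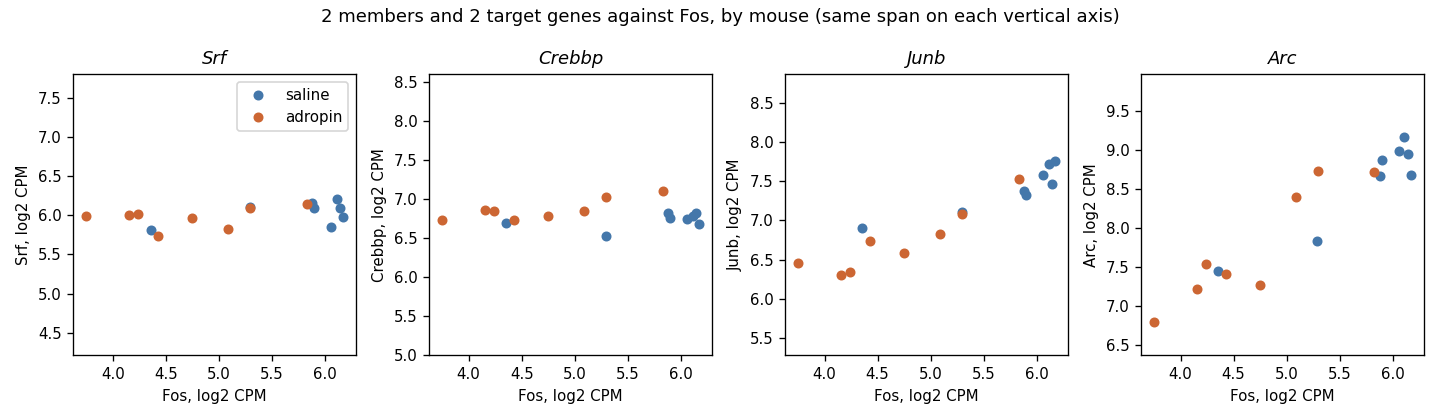
Log2 TMM-normalized CPM of Srf, Crebbp, Junb and Arc (vertical axes, all with the same span) against that of Fos (horizontal axes) in each saline (blue) and adropin (orange) mouse. Within groups the slopes on Fos are 0.49 for Junb, 0.97 for Arc, 0.087 for Srf (95% interval from -0.025 to 0.20) and 0.12 for Crebbp (0.032 to 0.20).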

How the data were processed

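Per the labels, RNA from brain tissue was poly-A selected and sequenced as paired reads. Reads were aligned by the authors to the mouse assembly GRCm38 (STAR) and counted per gene (featureCounts), and the deposited counts carry no normalization. The deposited CPM are the same counts divided by 1 constant per mouse. The source lists 40757 rows, of which 276 repeats were dropped. The GENCODE annotation of GRCm38 gave positions and exon lengths.

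TMM factors were calculated and edgeR 4.0.16 (R 4.3.3) quasi-likelihood tests were fitted on all 16 mice with no covariate, after leaving out 355 ribosomal RNA genes and genes not above 1 CPM in at least 7 mice. Permutation tests of single values used all 12870 divisions of the mice. Log2 levels used a prior count of 2. Each mouse is 1 replicate. The members and gene lists were chosen with earlier results of these data known. All 10 members were named, with up to 6 genes per list at the smallest unadjusted p below 0.05 (otherwise 2), 5 targets and the 3 genes most like Creb1, Crem and Srf. Lynx1, Btg2, Dusp1, Ier2 and Sst were named after their values were seen.

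Alternatives were DESeq2 1.42.0, limma-voom, limma-trend (limma 3.58.1) on log2 of CPM plus 1 or 0.1, a robust quasi-likelihood fit, other size factors, other filters, 1 surrogate variable (sva 3.50.0), the label numbers as a block and leaving out each mouse. The test was checked on simulated data.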

Additional observations from a re-analysis of the deposited data

How the results depend on the processing

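Leaving out each mouse in turn gave 0 to 1 genes of the machinery called higher, 0 to 1 called lower, 8 to 11 of the CREB targets and 7 to 9 of the rapid-response SRF targets called lower. The 1 gene called higher, Crebbp, was lost (count 0) with 1 surrogate variable, with the first or the second label number as a replicate block, and without the 2 deepest libraries, an alternative chosen after seeing the data. Its log2 fold change was then 0.11, 0.18, 0.11 and 0.081, and 0.11 to 0.17 when 1 mouse was left out. With 1 surrogate variable 2 genes were called lower in place of 0, Crtc3 (log2 fold change -0.15) and Srf (-0.13). The log2 fold changes of Ep300, Crtc1, Creb1 and Atf1 were then 0.0074, 0.024, 0.038 and 0.068, and without the 2 deepest libraries 0.10, 0.070, 0.042 and 0.052. With the first number as replicate block, 1 CREB target and 2 rapid-response SRF targets were called lower, and the log2 fold changes of Crem, Crtc2 and Elk1 changed sign to 0.123, 0.0752 and -0.0480. Those of Crtc3 and Srf were then -0.018 and -0.016. That of Crem, close to 0, was also 0.0569 with 1 surrogate variable, 0.0165 by limma-voom and -0.026 to 0.046 when 1 mouse was left out. Leaving out 1 mouse gave 0.040 to 0.10 for Creb1, 0.089 to 0.15 for Atf1, 0.080 to 0.18 for Crtc1, -0.15 to -0.068 for Crtc2, -0.13 to -0.065 for Crtc3, 0.10 to 0.23 for Ep300, -0.097 to -0.029 for Srf and 0.0081 to 0.096 for Elk1. The cause was not tested. The numbers share no pairing that the labels state: deviations of mice with the same first number correlated at -0.272 to 0.217 over 5 pairs across groups, and with the same second number at -0.561 to 0.300 over 17 pairs. The count of all genes at an unadjusted p below 0.05, 599, was 1902 with no low-count filter, 327 with the first block, 307 without the 2 deepest libraries and 385 to 1447 when 1 mouse was left out. Genes at an adjusted p below 0.05, 0 by edgeR, numbered 5 by DESeq2 and with 1 surrogate variable, 2 with the second block, 3 without adropin mouse 5_5 and 4 without the 2 deepest libraries. Genes with a slope on Fos numbered 6 to 421 when 1 mouse was left out, 402 with the second label number as a replicate block and 18 with no term for treatment group, beside 9. The remaining alternatives changed no count of machinery genes or of targets by over 1.5 times.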
